A study of Mus musculus with 3 samples.

Results

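Genes of the Bcl-2 family, 10 in number, were examined in RNA-seq of bone marrow (BM) Ly6G+ myeloid cells from mice given AAV-Ctrl or AAV-IL-27. They were chosen by symbol as Mcl1, Bcl2, Bcl2l1, Bcl2l11, Bcl2a1b, Bax, Bak1, Bid, Bbc3 and Pmaip1, and all 10 are present among the 16072 named genes of the table. The AAV-IL-27 vector, built on adeno-associated virus, makes the EBI3 and p28 chains of IL-27 as 1 linked protein from the general CAG promoter, and AAV-Ctrl is the same kind of vector without that insert. Both were injected into muscle. Every animal was a C57BL/6 mouse carrying subcutaneous B16.F10 melanoma cells, implanted 1 week ahead of the vector, and BM cells were taken 3 weeks after it. The study used mice aged 6 to 10 weeks, without giving the age of these animals. AAV-Ctrl is represented by 2 libraries and AAV-IL-27 by 1.

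Bcl-2 family proteins decide whether the outer mitochondrial membrane stays intact. Pro-survival members (Mcl-1, Bcl-2, Bcl-xL and A1) hold the effectors Bax and Bak in check, and BH3-only members (Bid, Bim, Puma and Noxa) sense stress and either neutralise the pro-survival proteins or activate the effectors. Neutrophils are short-lived cells that keep little Bcl-2 and are known to depend on Mcl-1, a protein with rapid turnover, with A1 as a further pro-survival protein in activated neutrophils.

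Values are FPKM, the authors' fragment values scaled for transcript length and library size, so levels of different genes can be set side by side. Differences are AAV-IL-27 minus AAV-Ctrl in log2(FPKM + 1), on which low genes appear to change less than they do. A gene was called higher or lower when it lay at least 1 log2 unit above or below both AAV-Ctrl libraries, among the 9130 genes whose mean FPKM reached 1. Since the AAV-IL-27 group has 1 library, this rule is not a test. A limma fit over the same 9130 genes was run beside it, in which the lone AAV-IL-27 library is assumed to vary like the 2 AAV-Ctrl libraries. Its p-values therefore rest on the difference between 2 mice, shared across genes. The estimated depth was 19100000 and 19400000 fragments for AAV-Ctrl 1 and 2, and 19100000 for AAV-IL-27. The cells carried their labelled marker, with Ly6g at 711.76, 766.11 and 586.29 FPKM in the same order, and 0 of 15 neutrophil markers were called in either direction. Genes of other cell types differed between the groups. All 16 erythroid markers and 13 of 14 macrophage markers were called lower in the AAV-IL-27 library. Fewer cells of a type and less RNA per cell cannot be told apart in these bulk samples.

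Of the 9 members with a mean FPKM of at least 1, 1 was called higher (Bcl2a1b) and 0 were called lower. Over all genes tested, 0.307% were called higher and 2.32% lower. By any amount, 6 of the 9 members lay above both AAV-Ctrl libraries and 2 lay below both, beside 38.9% and 41.9% of all genes. In limma, Bcl2a1b was higher and Bcl2l1 lower at an adjusted p under 0.05, against 2.84% of genes higher and 7.65% lower. The median difference was 0.27 over all 10 members and 0.36 over the 9 past the filter, beside -0.0054 over the 9130 genes. Bcl2, with 0.37, 0.27 and 0.27 FPKM, was below the filter and had no test.

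**Figure D1:**
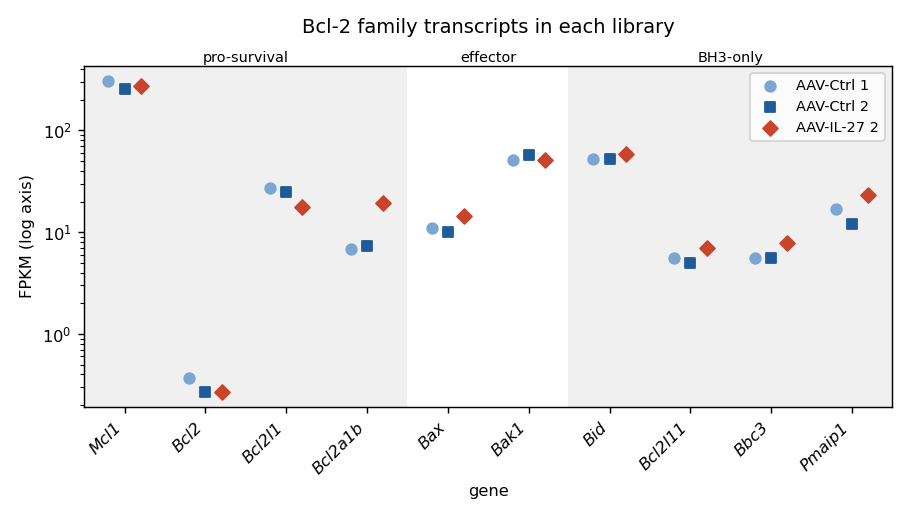
FPKM (log axis) of the 10 Bcl-2 family genes in each library, with genes ordered by role and 1 point per library (circle AAV-Ctrl 1, square AAV-Ctrl 2, diamond AAV-IL-27). Mcl1 stands highest and Bcl2 lowest in every library, and the AAV-IL-27 diamond of Bcl2a1b, at 19.51 FPKM, sits clear of the AAV-Ctrl values of 6.83 and 7.34.

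Mcl1 was the most abundant member in each of the 3 libraries. Mcl1 (chromosome 3, from 95656944 to 95663179 in GRCm38) was at 304.31 and 255.60 FPKM in AAV-Ctrl 1 and 2 and at 273.06 in AAV-IL-27. The AAV-IL-27 value fell between the controls, which themselves differed by 0.25 on the log2 scale, and the difference from their mean was -0.03 (limma adjusted p = 0.898, and from 0.89 to 0.963 over 5 limma fits). At this depth Mcl1 rested on an estimated 16602 to 19439 fragments per library, with 95% Poisson intervals narrower than the difference between the AAV-Ctrl mice. Mcl1 made up 87.9%, 86.6% and 84.3% of the summed FPKM of the pro-survival genes in the same order, where the sum covers Mcl1, Bcl2, Bcl2l1 and the 4 Bcl2a1 copies. That sum was 346.05, 295.29 and 323.95 FPKM, with the AAV-IL-27 library again between the controls.

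Bcl2, the founding member of the family, was the least abundant of the 10 members in all 3 libraries. It contributed 0.107%, 0.0914% and 0.0833% of the pro-survival sum. Its value in AAV-IL-27 equalled that of AAV-Ctrl 2.

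Bcl2a1b was the member with the largest difference. Bcl2a1b (chromosome 9, from 89199273 to 89207838, plus strand) is 1 of the mouse gene copies that encode A1, a pro-survival protein. It was at 6.83 FPKM in AAV-Ctrl 1 and 7.34 in AAV-Ctrl 2, and reached 19.51 in AAV-IL-27, well above both. The AAV-Ctrl mean was 7.09 ± 0.361 (SD, n = 2), and the AAV-IL-27 value was 2.75 times that mean. On the log2 scale it was 1.39 and 1.30 above AAV-Ctrl 1 and 2, which differed from each other by 0.09, and the mean difference was 1.34 (limma adjusted p = 0.00123, and from 0.000197 to 0.00123 over 5 limma fits). Ranked by the rise over the nearer AAV-Ctrl library, Bcl2a1b stood at 19 of 9130 genes. These values correspond to an estimated 97, 106 and 279 fragments. Their 95% Poisson intervals, which cover counting error only, reached up to 118 and 128 in AAV-Ctrl and began at 247 in AAV-IL-27.

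Because Bcl2a1b has near-identical gene copies, the other copies were set beside it. Bcl2a1c has a transcript of 444 bases, against 817 for Bcl2a1b, and whether it yields A1 protein was not tested. Upstream of the first bases of these genes, the copies are almost the same sequence, and the stretch that all 4 share is shown here to make the likeness visible. The sequences are from RefSeq (GRCm38.p6), are written from 5′ to 3′ on the strand of the gene, and end upstream of every annotated start. Capitals mark positions where the 4 copies do not all agree.
Bcl2a1b: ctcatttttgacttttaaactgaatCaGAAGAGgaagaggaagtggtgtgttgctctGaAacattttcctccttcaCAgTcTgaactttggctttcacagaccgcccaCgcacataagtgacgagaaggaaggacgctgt
Bcl2a1a: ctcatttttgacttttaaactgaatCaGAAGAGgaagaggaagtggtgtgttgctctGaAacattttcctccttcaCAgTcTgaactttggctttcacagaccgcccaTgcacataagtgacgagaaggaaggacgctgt
Bcl2a1d: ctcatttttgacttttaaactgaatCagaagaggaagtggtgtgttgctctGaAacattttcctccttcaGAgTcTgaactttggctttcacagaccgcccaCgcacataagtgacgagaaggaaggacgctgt
Bcl2a1c: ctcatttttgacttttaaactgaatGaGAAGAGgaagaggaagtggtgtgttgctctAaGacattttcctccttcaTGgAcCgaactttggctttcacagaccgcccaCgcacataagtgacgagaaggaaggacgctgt

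These stretches lie at chr9:89199089-89199228 (plus strand) for Bcl2a1b, chr9:88956780-88956919 (plus) for Bcl2a1a, chr9:88731851-88731984 (minus) for Bcl2a1d and chr9:114329885-114330024 (plus) for Bcl2a1c. Of 140 aligned columns, 126 are identical in the 4 copies. Bcl2a1a differs from Bcl2a1b in 1 column, and Bcl2a1d and Bcl2a1c in 7 each, mostly a gap in the case of Bcl2a1d. The transcripts are as close, with 98.2% identity between Bcl2a1a and Bcl2a1b, 99.1% between Bcl2a1b and Bcl2a1d and 95.3% between Bcl2a1b and Bcl2a1c. Of the 100-base windows of the Bcl2a1b transcript, 31.1% occur unchanged in another copy, against 43.5% for Bcl2a1a, 54.7% for Bcl2a1d and 0% for Bcl2a1c. The value of a single copy therefore depends on how the authors' counting treated shared fragments, which the sources used here do not give. In addition, 401 of the 817 exon bases of Bcl2a1b are shared on the same strand with Gm29094, a GENCODE gene without a row in the table.

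The sum over the 4 copies depends less on how fragments were divided among them. It was 13.93 and 14.49 FPKM in AAV-Ctrl 1 and 2 and 32.78 in AAV-IL-27, 2.31 times the AAV-Ctrl mean of 14.2 ± 0.396 (SD, n = 2). The log2 difference of the sum was 1.15. The copies did not all contribute alike. Bcl2a1d (1.61, 1.5 and 5.41 FPKM) was called higher as well, with a log2 difference of 1.33 (limma adjusted p = 0.00263), and rested on an estimated 24, 23 and 82 fragments. Bcl2a1a (5.35, 5.65 and 6.60 FPKM) lay above both controls by 0.19 and more, with a mean log2 difference of 0.23 (limma adjusted p = 0.261). Bcl2a1c (0.14, 0 and 1.26 FPKM) was below the filter, with an estimated 1, 0 and 9 fragments. The Poisson interval of AAV-IL-27 (from 4.12 to 17.1) overlaps that of AAV-Ctrl 1 (from 0.0253 to 5.57) but not that of AAV-Ctrl 2 (up to 3.69). Bcl2a1b made up 49.0% and 50.7% of the sum in the controls and 59.5% in AAV-IL-27, while Bcl2a1a made up 38.4%, 39.0% and 20.1%. The 4 copies together took 4.03%, 4.91% and 10.1% of the pro-survival sum, in the same order of libraries.

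**Figure D2:**
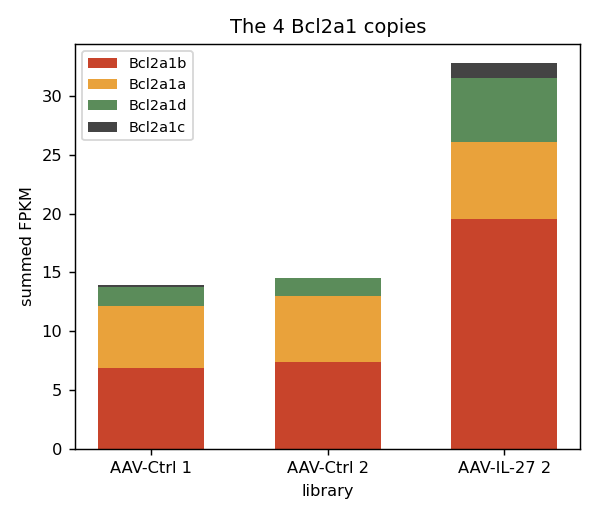
Stacked FPKM (linear axis from 0) of the 4 Bcl2a1 copies in each library, with 1 bar per library. The AAV-Ctrl bars reach 13.93 and 14.49 and the AAV-IL-27 bar 32.78, and the added height is mostly Bcl2a1b and Bcl2a1d.

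A1 is also made by other blood cells, among them monocytes and B cells. The 8 monocyte markers summed to 1116 and 1177 FPKM in the controls and to 1238 in AAV-IL-27. Most of that sum was Ly6c2 (1023.13, 1086.23 and 1145.19), and how much of it came from monocytes was not tested. Csf1r, the next in level, lay between the controls (78.57, 74.50 and 75.39). Of 7 markers past the filter, 4 lay above both controls, 0 were called higher and none was at 0. Fn1 (1.71, 2.01 and 4.37 FPKM) was higher and Irf8 (7.49, 7.89 and 4.66) lower past the limma threshold, while Ccr2 (1.43, 1.61 and 2.64) and F13a1 (2.05, 2.06 and 3.20) lay above both controls without passing it. The B cell markers were lower in the AAV-IL-27 library, with 4 of the 5 past the filter called lower. All 9 in the table summed to 99.3 FPKM against 154 and 220 in AAV-Ctrl. Most of that sum was Cd74 (126.49, 185.34 and 94.94), the only marker past the filter that was not called. Cd74 was at 60.9% of its AAV-Ctrl mean, and the 4 called markers were at 17.4% or less of theirs. The part of monocytes or B cells in the Bcl2a1b value was not tested.

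The genes whose pattern was most like that of Bcl2a1b were found by distance in the plane of the differences from AAV-Ctrl 1 and from AAV-Ctrl 2, over 3 libraries. Cd274, which encodes the checkpoint ligand PD-L1, was nearest, at 5.44, 5.62 and 15.92 FPKM. It was followed by Gbp9 (7.19, 7.21 and 19.52), an interferon-inducible guanylate-binding GTPase, by the phosphatase gene Dusp5 (7.45, 8.47 and 21.20), by Bcl2a1d and by the immediate early gene Egr3 (0.39, 0.32 and 2.38). Egr3 was low in the controls, where log2(FPKM + 1) shrinks differences, so its likeness depends on that scale. Within a distance of 0.1 of Bcl2a1b lay 3 genes, in a range that few genes reach, since 28 of 9130 were called higher.

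Bcl2l1 was the pro-survival member with a lower value. Bcl2l1 (chromosome 2, from 152758732 to 152833803) encodes Bcl-xL, which protects red cell precursors and platelets among other cells. It was at 27.44 and 24.93 FPKM in AAV-Ctrl 1 and 2 and at 17.84 in AAV-IL-27, which is 68.1% of the AAV-Ctrl mean of 26.2 ± 1.77 (SD, n = 2). The difference was -0.59 from AAV-Ctrl 1 and -0.46 from AAV-Ctrl 2, which differed from each other by 0.13. It was past the threshold in limma (adjusted p = 0.0203, and from 0.0156 to 0.0203 over 5 limma fits) but short of the 1 log2 unit of the call. Among the 9130 genes it ranked 706 by its fall below the nearer AAV-Ctrl library. Erythroid markers were lower in the same library, with all 16 called lower, a summed level of 20534 and 13874 FPKM in the controls and 2359 in AAV-IL-27, and none at 0. Of the megakaryocyte markers, 3 of 6 were called lower, and their sum was 55.6 and 62.1 FPKM in the controls and 11.7 in AAV-IL-27. The erythroid sum was 1.48 times as high in AAV-Ctrl 1 as in AAV-Ctrl 2, and Bcl2l1 was 1.10 times as high. That sum is mostly globin genes such as Hba-a1 (8135.70 and 5547.00 FPKM in AAV-Ctrl 1 and 2). Klf1, Gata1, Epor and Sptb were higher in AAV-Ctrl 2, and the other erythroid markers in AAV-Ctrl 1. The part of erythroid cells and megakaryocytes in the Bcl2l1 value was not tested.

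Within the distance of 0.1 of Bcl2l1 lay 52 genes. Smaller differences are shared by more genes, so this count cannot be compared with that of Bcl2a1b. The nearest were Hrh2, Zfp146, Kctd6, Hist1h2ao and Dera. None of these 5 is on a list used here. Zfp146 (1.60, 1.41 and 0.76 FPKM) and Kctd6 (2.28, 2.05 and 1.16) were low, so their likeness depends on the log2(FPKM + 1) scale.

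Ratios among the pro-survival genes differed accordingly. The ratio of Mcl1 to Bcl2l1 FPKM was 11.1 and 10.3 in the controls and 15.3 in AAV-IL-27. The ratio of Bcl2l1 to Bcl2a1b was 4.02 and 3.40 in the controls and 0.914 in AAV-IL-27, so their order was turned, subject to the division of fragments among the Bcl2a1 copies. Against the sum of the 4 copies, Bcl2l1 was 1.97 and 1.72 times as high in the controls and 0.544 times as high in AAV-IL-27. With 1 AAV-IL-27 library, these ratios carry no replicate error for that group. They may mix transcripts of different cell types, and the part of erythroid cells and megakaryocytes in them was not tested.

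**Figure D3:**
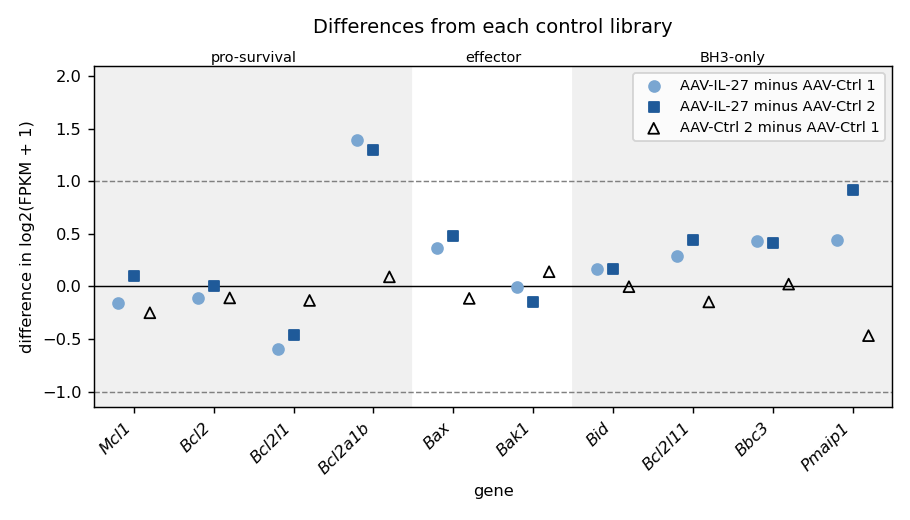
Differences in log2(FPKM + 1) for the 10 members, as AAV-IL-27 minus AAV-Ctrl 1 (circles), AAV-IL-27 minus AAV-Ctrl 2 (squares) and AAV-Ctrl 2 minus AAV-Ctrl 1 (open triangles), with dashed lines at 1 and -1. Only Bcl2a1b lies past a dashed line against both controls, Bcl2l1 is at -0.59 and -0.46, and the triangle of Pmaip1 is the farthest from 0 among the members.

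Both effectors were expressed, Bak1 at a higher level than Bax. Bak and Bax are the proteins that open the outer mitochondrial membrane. Bak1 (chromosome 17, from 27019812 to 27028627) was at 51.50 and 56.84 FPKM in the controls and 51.23 in AAV-IL-27. The AAV-IL-27 value lay 0.0074 below AAV-Ctrl 1 on the log2 scale, less than the 0.14 between the controls (limma adjusted p = 0.629, and from 0.628 to 0.907 over 5 limma fits). Bax (chromosome 7, from 45461695 to 45466903) was at 10.86 and 9.96 FPKM in the controls and 14.28 in AAV-IL-27, with a mean log2 difference of 0.42. That difference was larger than the 0.11 between the controls but did not pass the threshold (limma adjusted p = 0.0511, and from 0.0239 to 0.0515 over 5 limma fits, under the threshold in some of them). Bax rested on an estimated 165, 154 and 218 fragments, and the 95% Poisson interval of AAV-IL-27 (from 190 to 249) overlaps that of AAV-Ctrl 1 (from 141 to 192) but not that of AAV-Ctrl 2 (from 131 to 180). The ratio of Bak1 to Bax was 4.74 and 5.71 in the controls and 3.59 in AAV-IL-27. The sum of both effectors was 62.36, 66.80 and 65.51 FPKM, between the controls in AAV-IL-27.

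All 4 BH3-only members lay above both AAV-Ctrl libraries, beside 38.9% of all genes tested, and none was called or passed the limma threshold in the fit to log2(FPKM + 1). Their mean differences ranged from 0.17 to 0.68. Their summed level was 79.88 and 74.27 FPKM in the controls and 96.59 in AAV-IL-27, which is 125% of the AAV-Ctrl mean.

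Pmaip1 had the largest difference among them. It encodes Noxa, a BH3-only protein that binds Mcl-1 and A1. Pmaip1 (chromosome 18, from 66458604 to 66465558) was at 16.93 and 11.96 FPKM in the controls and 23.43 in AAV-IL-27. This was 0.45 above AAV-Ctrl 1 and 0.91 above AAV-Ctrl 2 on the log2 scale, and the controls differed by 0.47, the widest gap between controls among the members. The smaller of the differences was thus no larger than the gap between the AAV-Ctrl mice (limma adjusted p = 0.0735, and from 0.0326 to 0.0777 over 5 limma fits). Estimated fragments were 858, 616 and 1192, and the 95% Poisson intervals of the controls, 802 to 917 for AAV-Ctrl 1 and 568 to 667 for AAV-Ctrl 2, were apart. The ratio of Mcl1 to Pmaip1 was 18 and 21.4 in the controls and 11.7 in AAV-IL-27.

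Bbc3, which encodes Puma, was close in the AAV-Ctrl libraries. Bbc3 (chromosome 7, from 16308398 to 16318334) was at 5.51 and 5.61 FPKM in the controls and 7.80 in AAV-IL-27, a mean log2 difference of 0.42 where the controls differed by 0.02 (limma adjusted p = 0.0588, and from 0.0288 to 0.073 over 5 limma fits). The 95% Poisson intervals of its estimated 183, 190 and 260 fragments, ended at 212 and 219 in AAV-Ctrl and began at 229 in AAV-IL-27.

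Bcl2l11 encodes Bim, a BH3-only protein that binds every pro-survival member and is known for setting the lifespan of blood cells. Bcl2l11 (chromosome 2, from 128126038 to 128162547) was at 5.59 and 4.95 FPKM in the controls and 7.06 in AAV-IL-27, a mean log2 difference of 0.36 with 0.15 between the controls (limma adjusted p = 0.117, and from 0.0641 to 0.142 over 5 limma fits). The table lists 5 transcripts for Bcl2l11, from 2301 to 5036 bases, so its fragments were not estimated. The ratio of Mcl1 to Bcl2l11 was 54.4 and 51.6 in the controls and 38.7 in AAV-IL-27.

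Bid, the BH3-only protein that links death receptors to mitochondria, was the most abundant of the BH3-only members. Bid (chromosome 6, from 120893119 to 120917062) was at 51.85 and 51.75 FPKM in the controls and 58.30 in AAV-IL-27. Its mean log2 difference of 0.17 was the smallest of the BH3-only members (limma adjusted p = 0.205, and from 0.0967 to 0.227 over 5 limma fits). Bid shares 628 exon bases on the opposite strand with its neighbour Bcl2l13, and Bak1 shares 614 with Ggnbp1. The libraries mark strand, but whether the counting used it is not given in the sources used here.

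**Figure D4:**
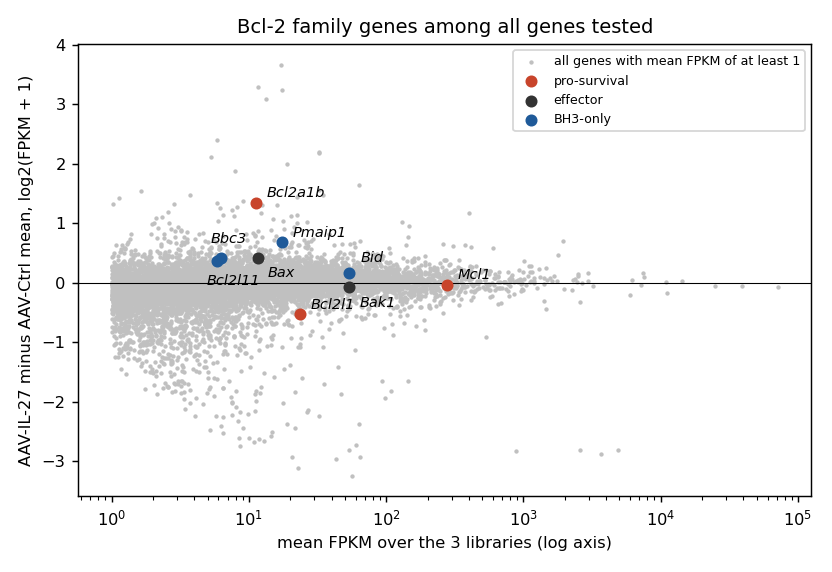
Difference of the AAV-IL-27 library from the AAV-Ctrl mean in log2(FPKM + 1) against the mean FPKM over the 3 libraries (log axis) for the 9130 genes tested (grey), with the 9 members past the filter coloured by role. Bcl2a1b, at 1.34, stands above most genes of its level, and Mcl1, at -0.03, lies near 0.

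In order of level, Mcl1 came first in all 3 libraries, and Bid and Bak1 took the next places. The order of Bid and Bak1 changed between the AAV-Ctrl libraries, and Bid was the higher of the pair in AAV-IL-27. Below them, AAV-Ctrl 1 and 2 shared the order Bcl2l1, Pmaip1, Bax and Bcl2a1b. In AAV-IL-27 it was Pmaip1, Bcl2a1b, Bcl2l1 and Bax. Bcl2l11 and Bbc3 followed in each library and exchanged places between the AAV-Ctrl libraries, and Bcl2 was last. The ratio of the pro-survival sum to that of the 4 BH3-only members was 4.33 and 3.98 in the controls and 3.35 in AAV-IL-27. The pro-survival sum lay between the controls and the sum of these 4 members above both. The 6 other BH3-only genes in the table are outside this ratio. They summed to 203.63 and 190.76 FPKM in the controls and 198.70 in AAV-IL-27, between the controls.

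STAT factors, which carry the IL-27 signal, are known to bind GAS elements, and interferon-induced factors bind ISRE elements. The letters TTCNNNGAA (GAS), and GAAA followed by 2 bases of any kind and again GAAA (ISRE core), were searched on both strands of RefSeq windows. These run from 250 bases before to 50 bases after each start for which a window was given. The outermost annotated 5′ ends of Mcl1, Bbc3 and Bcl2l1 lie outside these windows and were not searched. No match was present in the 14 windows of 9 members or in those of the other 3 Bcl2a1 copies, and no window was given for Pmaip1. Of 32851 such windows of all genes, 8.30% held the GAS letters and 3.44% the ISRE core. This says only that these letters are not in these windows.

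Around the members, 75 other genes of the apoptosis machinery were examined, of which 72 are in the table and 55 reached a mean FPKM of 1. Of these 55, 1 was called higher (Bcl2a1d) and 1 lower (Birc5), while 23 lay above and 23 below both AAV-Ctrl libraries. Their median difference was 0.03. In limma, Fas passed the threshold beside them. Bcl2l10, Hrk and Eda2r have no row in the table.

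Of the other BH3-only genes, none of the 5 past the filter was called, and their differences ranged from -0.30 to 0.34 with a median of 0.0016. Of these 5, 1 lay above both controls and 2 below both. The most abundant were Bnip3l (89.61, 79.93 and 84.73 FPKM), which is known for the removal of mitochondria, and Becn1 (74.04, 73.61 and 72.98), an autophagy gene. Of the other genes with Bcl-2 homology, Bcl2l13 (5.65, 5.50 and 4.91 FPKM) and Bcl2l12 (1.33, 3.39 and 1.79) passed the filter and were not called. Bok, an effector-like relative, stood at 0.03, 0.10 and 0 FPKM.

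The apoptosome, caspase and channel genes included no called gene. Among the 11 apoptosome and caspase genes, several of which act once cytochrome c has left the mitochondria, the median difference was -0.07 and 7 lay below both controls. Apaf1, the core of the apoptosome, was at 19.39, 21.99 and 18.31 FPKM. The voltage-dependent anion channels of the same membrane, led by Vdac2 (86.40, 85.44 and 90.54 FPKM) and Vdac1 (26.05, 27.07 and 24.13), had a median of -0.13 over 3 genes.

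Among 8 inhibitor of apoptosis genes, Birc5 was called lower. Birc5 encodes survivin, which acts in mitosis as well as in apoptosis, and was at 10.23, 13.48 and 4.61 FPKM (log2 difference -1.18, limma adjusted p = 0.00925). Cell cycle genes were lower with it. Of 13 past the filter, 13 lay below both controls, with a median of -1.01, and 5 were called lower, namely Mki67 (17.40, 17.98 and 8.04 FPKM), Pcna (23.42, 27.39 and 9.09), Rrm2, Mcm2 and Mcm5. All 14 listed cell cycle genes together summed to 107 and 122 FPKM in the controls and 45.6 in AAV-IL-27, and none was at 0. The part of cycling cells in the Birc5 value was not tested. The most abundant inhibitor genes were Birc3 (40.85, 39.94 and 49.95 FPKM), which encodes cIAP2, and Naip2 (28.57, 29.15 and 28.11), and neither was called.

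Death receptor genes had a median difference of 0.17 over 7 genes, with 4 above both controls and none called. Fas, the death receptor that Bid connects to mitochondria, was at 39.19 and 38.25 FPKM in the controls and 50.89 in AAV-IL-27 (log2 difference 0.39, limma adjusted p = 0.0267). Tnfrsf1a was the most abundant, at 176.39, 169.56 and 194.15 FPKM, and was not called.

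Bax, Bbc3 and Pmaip1 are textbook targets of p53, and over 6 genes of the p53 list the median difference was 0.05 and 4 lay above both controls, with Trp53inp1 at 81.68, 75.00 and 90.42 FPKM and Mdm2 at 45.31, 43.34 and 45.57. Trp53, which encodes p53 itself, was at 12.27 and 13.36 FPKM in the controls and 16.19 in AAV-IL-27 (log2 difference 0.32). Cdkn1a, a p53 target that arrests the cell cycle, was at 0.39, 0.59 and 0.51 FPKM and below the filter. Genes of Mcl-1 protein turnover had a median of -0.07 over 5 genes, 4 of them below both controls, with Gsk3b at 15.75, 15.07 and 14.98 FPKM and the deubiquitinase gene Usp9x at 10.33, 9.57 and 9.14. The list of FoxO and stress response genes had a median of 0.13 over 6 genes, with 5 above both controls. Atf4 (80.03, 71.44 and 85.29 FPKM) and Ddit3 (31.96, 29.04 and 34.57) led it in level. The FoxO genes did not move alike. Foxo3 (31.95, 33.39 and 29.93 FPKM) lay below both controls and Foxo4 (9.76, 9.29 and 9.94) above both. Foxo1 (0.74, 0.93 and 0.36) was below the filter. The largest difference among the 6 genes past the filter was that of Chac1 (6.67, 6.04 and 8.25 FPKM), at 0.33. No gene of these 3 lists was called or passed the limma threshold.

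**Figure D5:**
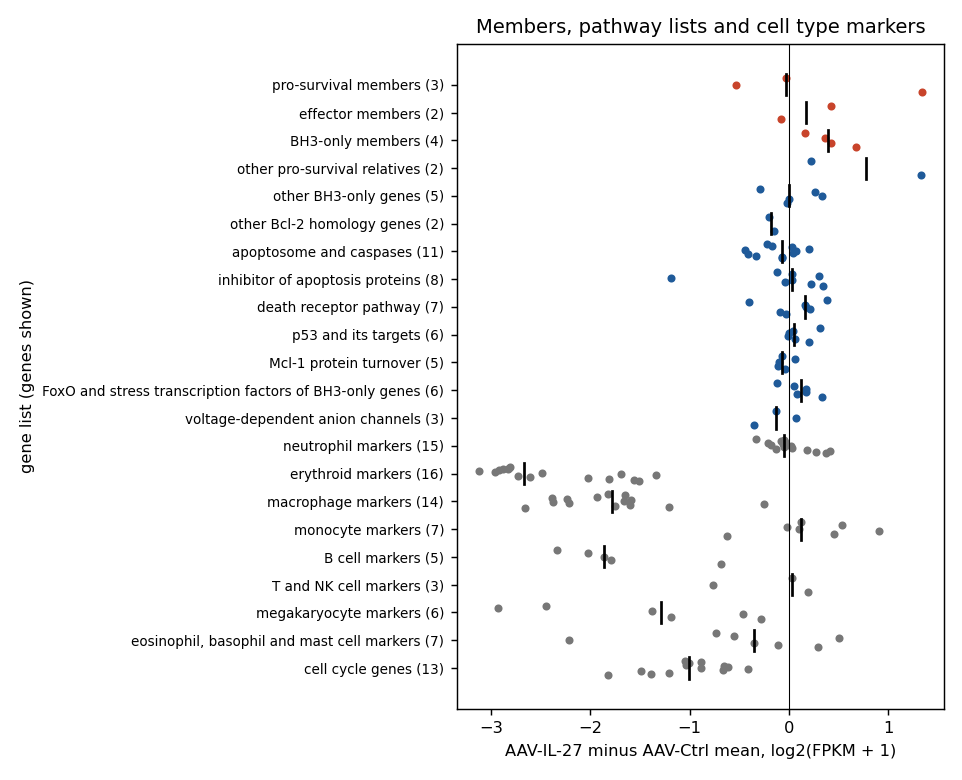
Difference of the AAV-IL-27 library from the AAV-Ctrl mean in log2(FPKM + 1) for the genes of each list whose mean FPKM reached 1, with 1 point per gene and a bar at the median (members red, other pathway genes blue, cell type markers and cell cycle genes grey, number of genes in brackets). Medians of the blue lists lie between -0.18 and 0.17 apart from that of the other pro-survival relatives, whose 2 points are Bcl2a1a and Bcl2a1d, while the erythroid, macrophage, B cell, megakaryocyte and cell cycle medians are at -1.01 or lower.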

How the data were processed

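RNA-seq of BM Ly6G+ cells was analysed for 2 AAV-Ctrl libraries and 1 AAV-IL-27 library, grouped by their labels. The authors enriched mRNA with oligo-dT, made strand-marked libraries, sequenced them on a DNBSEQ platform and deposited FPKM values with 2 decimals for 16073 rows, of which 1 without a symbol was left out. The build is mm10 per the submitters' processing notes. The aligner and counting tool are not given in the sources used here. The study calls these cells Gr-1+ and counts 2 mice per group, and 1 further column of per-sample values, which matches no listed sample, was not used here.

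Differences were computed as log2(FPKM + 1), with a mean FPKM of at least 1 as filter. limma 3.58.1 (R 4.3.3, trend, 1 residual degree of freedom) was run on the same values with Benjamini-Hochberg adjustment over 9130 genes. For depth, the spacing of low FPKM values was fitted over 10934 genes, taking 70 nt off each length. Each of these genes has 1 transcript in the authors' values and a single length for it in GENCODE M21. Of 490, 472 and 470 low values, 73.3%, 74.6% and 70.6% lay within 0.15 of whole fragments, so fragment numbers are approximate and count models were left out. Intervals are exact Poisson intervals at the 95% level. Upstream sequences were aligned with MAFFT, and positions are those of RefSeq (GRCm38.p6), whose gene numbers matched 16035 rows. Python 3.11.15, numpy 2.4.6, pandas 2.3.3 and matplotlib 3.10.9 were used, and the scripts were tested on simulated data.

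The named genes are the members, the called genes and the 2 most abundant genes of each pathway list, the Bcl2a1 copies, and the 5 genes nearest in pattern to the member with the largest rise and the largest fall. Fas, Cdkn1a, Trp53, Chac1, Foxo1, Foxo3, Foxo4, the genes without a row and the genes of overlaps were named after their values were seen. So was each monocyte, erythroid and B cell marker named here. A gene that this rule names is not reported here. The members and lists were chosen with earlier results of these data known. Alternatives comprised pseudocounts of 0.1 and 0.01, other filters and thresholds, 2 rescalings and dropping each AAV-Ctrl library in turn.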

Additional observations from a re-analysis of the deposited data

How the results depend on the processing

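The call of Bcl2a1b as higher and the count of 0 members lower held under both smaller pseudocounts, both other filters, both rescalings, without either AAV-Ctrl library and at a threshold of 0.5. At a threshold of 2, 0 members were higher. Leaving out either AAV-Ctrl library gave 1 member higher and 0 lower. In limma, 1 member was lower (Bcl2l1) in each of 5 fits, while the number of members higher was 1 with log2(FPKM + 1) or a pseudocount of 0.1, 2 with the filter raised to a mean FPKM of 5, and 4 (Bcl2a1b, Bax, Bbc3 and Pmaip1) after equal FPKM totals and after median ratios. The last 4 fits were chosen after the data had been seen. At an unadjusted p under 0.05, limma gave 901 genes higher and 1478 lower. The rescalings shifted the median of all genes by 0.037 and 0.053. Over the alternatives, the log2 difference of Bcl2a1b ranged from 1.30 to 1.46, that of the summed Bcl2a1 copies from 1.12 to 1.21, that of Bcl2l1 from -0.59 to -0.46 and that of Pmaip1 from 0.45 to 0.91. Mcl1 changed sign in 3 of its alternatives and ranged from -0.16 to 0.09, and Bcl2 reached 0. No other member changed sign. The median of the members (0.27) was 0.36 with the filter at 5, which leaves out Bcl2, and 0.32 under median ratios, and it lay from 0.23 to 0.29 without either AAV-Ctrl library.

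Over all genes, 212 were lower and 28 higher. The lower genes were 396 and 425 with pseudocounts of 0.1 and 0.01, 93 with the filter at 5, and 640 and 39 at thresholds of 0.5 and 2. The higher genes were 46 with a pseudocount of 0.01, and 143 and 5 at these thresholds. Without either AAV-Ctrl library, 243 to 294 genes were lower and 40 to 49 higher. In limma 698 were lower and 259 higher, and in the further fits 736, 299, 704 and 730 were lower and 254, 219, 406 and 501 higher. No paired analysis was possible because replicate number 2 alone occurs in both groups.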
